A study of Rattus norvegicus with 10 samples.

Results

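This account describes 6 genes of rat kidney, Csrp3, Fcnb, Ch25h, Slc10a2, Guca2a and Mab21l3, out of 14506 genes named on the array. They were selected on measured values, because their signal was higher in the pools of choline-deficient corn oil rats without the necrotic label than in both the choline-fed and the necrotic pools. Their values in that comparison are therefore a description and carry no test. Each gene had 1 row in the table of log2 intensities, so all 6 were measured and none was filtered out.

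Whole kidneys came from weanling Wistar males killed after 6 days on 1 of the diets, and each of 10 arrays carried RNA pooled from 3 animals, 2 pools per group. The necrotic group (necrotic pools) received a choline-deficient diet with corn oil and carries the word necrotic in its labels. The deficient corn oil group received the same diet and lacks that word. The supplemented corn oil group received choline with the same fat, which the protocol describes as corn and hydrogenated oils. The deficient and supplemented fish oil groups received menhaden oil without and with choline. How animals were sorted into necrotic and other pools is not given in the sources used here. All rats were killed on the same day of the diet, so the groups do not form a time course, and whether these genes rose before necrosis in any animal was not measured. Nothing in the labels pairs replicate numbers across groups, and p-values measure the spread between pools, with the number of arrays limiting the precision.

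Choline is the precursor of phosphatidylcholine and of betaine, and a diet without it causes acute tubular necrosis of the kidney in weanling rats. The 6 genes belong to unrelated systems. Csrp3 encodes the muscle LIM protein of heart and skeletal muscle, and Fcnb encodes ficolin B, a soluble lectin of myeloid cells that can start the lectin pathway of complement. Ch25h encodes the enzyme that hydroxylates the side chain of cholesterol to an oxysterol, which holds back the processing of sterol regulatory proteins. Slc10a2 encodes the sodium-dependent bile acid transporter of the ileum and of the proximal tubule brush border. Guca2a encodes guanylin, a peptide that activates the guanylyl cyclase receptor Gucy2c in intestine and promotes sodium excretion. Mab21l3 belongs to a family named after the worm cell-fate gene mab-21.

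Upstream sequences are shown for Ch25h and Slc10a2 among the 5 genes with an entry in the RefSeq promoter table (assembly GRCr8). Within the 250 bases before the gene's start, these matched the cyclic AMP response element, TEAD or AP-1 pattern. Capitals mark the matches. In Ch25h (chr1:241429367-241429616, minus strand) they are the cyclic AMP response element TGACGTCA, 77 to 70 bases before the start, and the reverse complement of the TEAD motif CATTCC, 84 to 79 bases before it. In Slc10a2 (chr16:91087839-91088088, plus strand) the match is TGATTCA, 128 to 122 bases before the start. It was found with the AP-1 pattern TGANTCA, which left the middle base free. Whether the form with T serves as an AP-1 site was not tested.
Ch25h: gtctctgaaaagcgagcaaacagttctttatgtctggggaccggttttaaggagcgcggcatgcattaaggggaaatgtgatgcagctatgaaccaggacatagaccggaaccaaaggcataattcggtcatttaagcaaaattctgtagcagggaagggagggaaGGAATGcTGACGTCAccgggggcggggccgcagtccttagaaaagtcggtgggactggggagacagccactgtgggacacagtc
Slc10a2: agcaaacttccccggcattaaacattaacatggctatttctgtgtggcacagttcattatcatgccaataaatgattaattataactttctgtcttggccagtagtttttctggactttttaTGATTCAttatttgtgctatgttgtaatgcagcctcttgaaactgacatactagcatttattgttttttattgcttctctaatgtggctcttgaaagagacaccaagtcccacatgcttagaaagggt
Of 33469 promoters of that length 1.59% held TGACGTCA, 12.1% held CATTCC and 6.34% held TGANTCA, on either strand. The motifs TATAAA (12.9% of promoters) and TTCNNNGAA (STAT, 7.67%) had no match in any of the 5. The E box CANNTG, found in 65.5% of promoters, matched in 4 of the 5, namely Mab21l3, Fcnb, Guca2a and Slc10a2. These matches describe letters in a window and not binding sites.

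The arrays themselves differed in ways that touch these genes. On the line from the supplemented corn oil mean to the necrotic mean, computed over all 29214 rows as a percentage of the way, deficient corn oil replicate 1 lay at 22.6% and replicate 2 at 49.0%. Fish oil arrays lay between 4.7% and 12.8% on the same line. Havcr1, an injury marker of proximal tubule cells chosen after its values were seen, read 13.24 and 13.53 in necrotic pools, 11.82 and 13.11 in deficient corn oil pools and 6.67 and 6.56 in supplemented corn oil pools. By this gene the deficient corn oil pools lay near the necrotic ones. The part of these differences between arrays in the results was not tested. The 9 measured kidney defining markers (such as Slc34a1, Umod and Aqp2) had mean levels of 9.83 and 9.65 in necrotic, 11.80 and 11.66 in deficient corn oil and 12.05 and 12.14 in supplemented corn oil pools. They were thus clearly present on every array. The limma fit called 7 of the 9 lower in necrotic than in deficient corn oil pools, against 5.08% of all rows. Slc12a1 differed by -0.46 ± 0.13 and Slc4a1 by -0.10 ± 0.18 without a call. Without single arrays the difference ran from -1.76 to -0.78 for Aqp2 and from -0.98 to -0.60 for Nphs1. Both of these calls depended on which array was left out. Whole-kidney RNA cannot tell fewer cells of a type from less RNA per cell.

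Csrp3 had the widest spread of the 6. Its log2 intensity was 6.96 and 6.50 in necrotic pools, 10.48 and 8.29 in deficient corn oil pools and 6.07 and 6.17 in supplemented corn oil pools. The fish oil pools read 7.03 and 6.61 without choline and 6.72 and 6.32 with it. Both deficient corn oil pools lay above all 8 other arrays, but they differed from each other by 2.19 on the log2 scale. The mean in deficient corn oil pools was higher than in supplemented ones by 3.26 ± 0.57 (moderated SE of the log2 difference, 2 pools per group), or 9.61-fold. Necrotic pools lay 2.65 ± 0.57 below deficient corn oil pools. The SE combines the spread within all 5 groups. For Csrp3 the SD was 1.55 between deficient corn oil pools and 0.07 to 0.32 in the other groups. The SE of 0.57 therefore understates the spread of the deficient corn oil pools. How far Csrp3 stood above the higher of the necrotic and supplemented corn oil means, here called its peak height, was 2.65. Without deficient corn oil replicate 1 the peak height was 1.56, and without replicate 2 it was 3.75.

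Fcnb read 8.67 and 8.37 in necrotic pools, 10.20 and 10.87 in deficient corn oil pools and 8.32 and 8.41 in supplemented corn oil pools. In fish oil pools it read 8.10 and 7.71 without choline and 7.86 and 7.79 with it. The necrotic and supplemented corn oil values overlapped. All 4 fish oil arrays lay below both supplemented corn oil arrays, which was so for no other gene of the 6. The corn oil difference, deficient minus supplemented, was 2.17 ± 0.22 or 4.49-fold, and necrotic minus deficient was -2.01 ± 0.22. Fcnb was the 1 gene of the 6 that was higher in deficient corn oil replicate 2, the pool nearer to the necrotic arrays, than in replicate 1.

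Ch25h had values of 7.89 and 7.90 in necrotic pools, 9.54 and 8.89 in deficient corn oil pools and 7.41 and 7.67 in supplemented corn oil pools, with 7.55 and 7.22 in deficient and 7.31 and 7.28 in supplemented fish oil pools. Deficient corn oil pools were 1.67 ± 0.21 above supplemented ones (3.19-fold), and necrotic pools were 1.32 ± 0.21 below deficient ones. Necrotic pools still lay above both supplemented corn oil pools and above all fish oil pools.

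Slc10a2 had the closest pools. It read 8.14 and 8.33 in necrotic, 9.55 and 9.52 in deficient corn oil and 8.16 and 8.10 in supplemented corn oil pools, and 8.09 and 8.12 in deficient against 7.98 and 7.75 in supplemented fish oil pools. The deficient corn oil pools differed by 0.03, and the other corn oil groups overlapped each other. The corn oil difference was 1.41 ± 0.12 (2.65-fold), the smallest of the 6, and necrotic pools were 1.31 ± 0.12 below deficient ones. In deficient against supplemented corn oil pools none of the 9 kidney defining markers passed (4 at an unadjusted p under 0.05), and their median difference was -0.34.

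Guca2a read 8.90 and 8.70 in necrotic, 10.46 and 9.60 in deficient corn oil and 8.51 and 8.23 in supplemented corn oil pools. Its fish oil values were 8.97 and 8.21 without choline and 8.43 and 8.59 with it, so the deficient fish oil pools lay on either side of the supplemented ones. The corn oil difference was 1.66 ± 0.31 (3.16-fold), with necrotic pools 1.23 ± 0.31 below deficient ones. Its peak height of 1.23 was 0.79 without deficient corn oil replicate 1 and 1.66 without replicate 2.

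Mab21l3 read 8.76 and 8.87 in necrotic, 10.30 and 9.66 in deficient corn oil and 8.11 and 7.94 in supplemented corn oil pools, and 7.97 and 7.75 in deficient against 7.79 and 8.07 in supplemented fish oil pools. It was 1.95 ± 0.21 higher in deficient than in supplemented corn oil pools (3.87-fold) and 1.17 ± 0.21 lower in necrotic than in deficient ones. As a share of the deficient minus supplemented corn oil difference, its necrotic minus supplemented difference was the largest of the 6, at 40.3%. Fcnb was at 7.07% and Slc10a2 at 7.28%. Csrp3, Ch25h and Guca2a lay between, at 18.7%, 21.2% and 26.0%. Their necrotic minus supplemented corn oil differences were 0.61 ± 0.57, 0.36 ± 0.21 and 0.43 ± 0.31, so the order of these shares is uncertain.

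**Figure D1:**
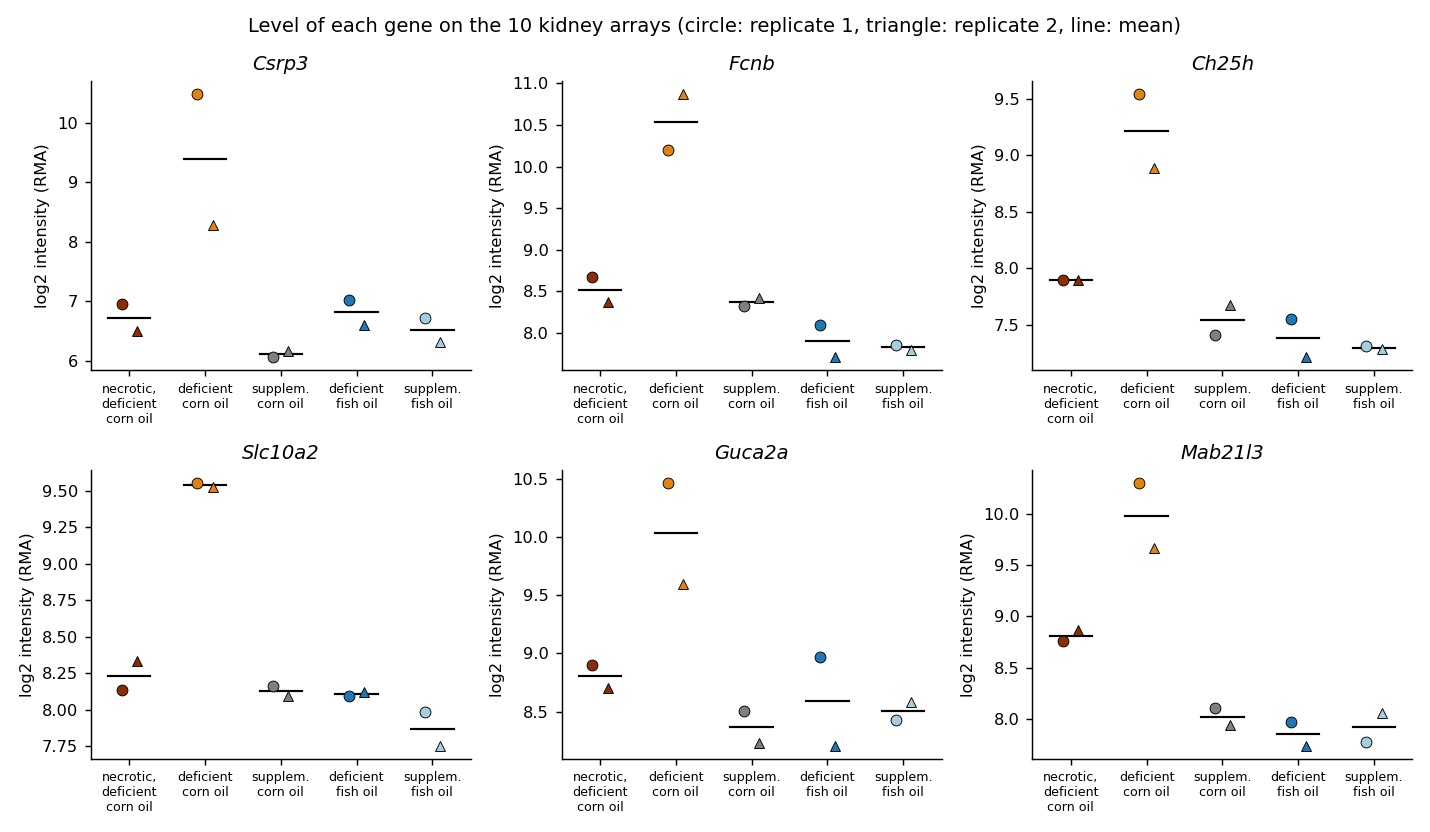
Log2 intensity (vertical axis, RMA) of each gene on the 10 arrays, by group. Circles are replicate 1, triangles replicate 2 and lines the mean of 2 pools. In every panel both deficient corn oil pools lie above the other 8 arrays, and the pools lie 2.19 apart for Csrp3 but 0.03 apart for Slc10a2.

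Across the groups the order of levels was alike at the top. The deficient corn oil mean was the highest for 6 of 6 genes, as the choice of genes requires, and the necrotic mean came next for 5 of them. For Csrp3 the deficient fish oil mean of 6.82 came next, overlapping the necrotic mean of 6.73. Both necrotic pools lay above both supplemented corn oil pools for 4 genes (Csrp3, Ch25h, Guca2a and Mab21l3) and overlapped them for Fcnb and Slc10a2. The necrotic minus supplemented corn oil differences ran from 0.10 ± 0.12 for Slc10a2 to 0.79 ± 0.21 for Mab21l3. These 6 levels in the supplemented corn oil pools stood between the percentiles 32.3 (Csrp3) and 63.4 (Guca2a) of all rows.

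Lack of choline under fish oil is not a comparison that the choice of genes names, although the choice speaks of choline-fed pools without naming their oil. If the supplemented fish oil pools were among them, their values were used in part. The comparison asks whether they move where the fat is menhaden oil. None of the 6 passed in the limma fit. Csrp3 differed by 0.30 ± 0.57 (deficient minus supplemented fish oil, 95% interval -0.99 to 1.59), Slc10a2 by 0.24 ± 0.12 (-0.04 to 0.52) and Ch25h by 0.08 ± 0.21 (-0.40 to 0.57). Fcnb differed by 0.08 ± 0.22 (-0.43 to 0.59), Guca2a by 0.08 ± 0.31 (-0.62 to 0.78) and Mab21l3 by -0.07 ± 0.21 (-0.54 to 0.40). Since the SE combines all 5 groups, these intervals also carry the spread between deficient corn oil pools, which was widest for Csrp3. The adjusted p was 1 for each, and the lowest unadjusted p was 0.0843, for Slc10a2. Of all 29214 rows 0 passed this comparison (0% called), and 1036 had an unadjusted p under 0.05.

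Slc10a2 was the 1 gene of the 6 whose deficient fish oil pools both exceeded both supplemented fish oil pools. The upper ends of all 6 intervals under fish oil lay below that gene's corn oil difference, though the corn oil values were selected to be large and the difference between oils was therefore not tested for these genes. Deficient fish oil replicate 1, in which Havcr1 read 9.30 against 7.22 in replicate 2, was the highest of the 4 fish oil arrays for 4 of the 6 genes (Csrp3, Fcnb, Ch25h and Guca2a). Without that array the differences of Fcnb, Ch25h and Guca2a were -0.11, -0.082 and -0.30. Deficient fish oil minus deficient corn oil pools ran from -2.63 (Fcnb) to -1.43 (Slc10a2), a difference that the choice of genes partly fixes.

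**Figure D2:**
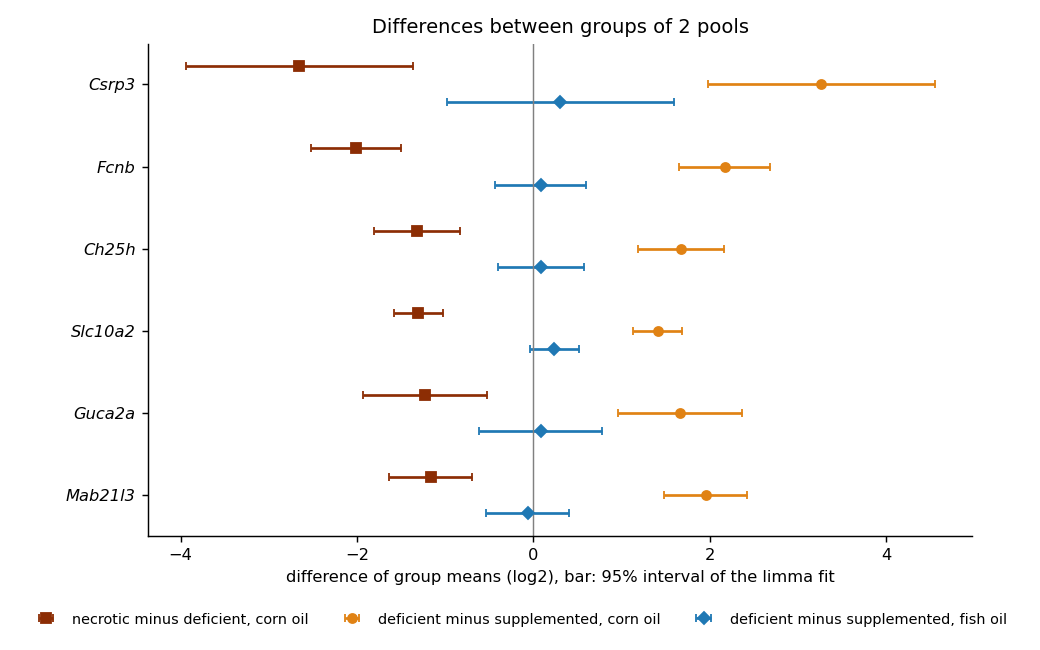
Differences of group means (horizontal axis, log2) for the 6 genes, with 95% intervals from the fit over all 10 arrays. Squares are necrotic minus deficient corn oil, circles deficient minus supplemented corn oil and diamonds deficient minus supplemented fish oil. All 6 fish oil intervals include 0. The genes were chosen on both corn oil comparisons (squares and circles), so whether those intervals include 0 is no test. The deficient minus supplemented corn oil differences run from 1.41 to 3.26.

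The peak heights of the 6 genes were uncommon in the table, while the order of their arrays was less so. Both deficient corn oil arrays exceeded the 8 other arrays in 524 of 29214 rows (1.79%), and 664 rows had both below all 8. A peak height of at least 1 was reached by 19 rows, of which 15 had a gene symbol, standing for 14 genes. The 6 genes had peak heights of 2.65 (Csrp3), 2.01 (Fcnb), 1.32 (Ch25h), 1.31 (Slc10a2), 1.23 (Guca2a) and 1.17 (Mab21l3), and the median over all rows was -0.14. Without deficient corn oil replicate 1 the peak height was under 1 for Ch25h (0.99), Guca2a (0.79) and Mab21l3 (0.85). It was then 1.56 for Csrp3, 2.35 for Fcnb and 1.29 for Slc10a2. The calls themselves were made for 0.893% of rows as higher in deficient than in supplemented corn oil pools and for 5.08% as lower in necrotic than in deficient ones. In 25 rows both calls coincided, 21 of them with 1 symbol, and all 6 genes were among these. Both comparisons share the deficient corn oil arrays, and the counts describe the rule and are no test of it.

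Ranked by peak height among named genes, the 6 held places 1, 3, 5, 6, 9 and 10. The genes between and just after them were Kng2 (2.34), Ccr2 (1.53), Cxcl10 (1.30), Kng1 (1.26), Atf3 (1.14), Ccl12 (1.06), Lypd8 (1.02), Ccl4 (1.02), Fgf23 (0.97) and Tm4sf20 (0.96). Ccr2, Cxcl10, Ccl12 and Ccl4 encode a chemokine receptor and chemokines, Kng1 and Kng2 encode kininogens, Atf3 a stress-induced transcription factor and Fgf23 a phosphate-regulating hormone. In necrotic minus supplemented corn oil pools Atf3 had a difference of 2.82, Kng1 of 2.02 and Kng2 of 1.72. The other 7 ran from -0.41 (Cxcl10) to 0.69 (Fgf23), with Ccr2 at 0.33, Ccl12 at 0.41, Tm4sf20 at 0.45, Lypd8 at 0.048 and Ccl4 at -0.10. Csrp3 and the other 5 genes described lay at 0.10 to 0.79, a range that 4 of these 10 genes shared.

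**Figure D3:**
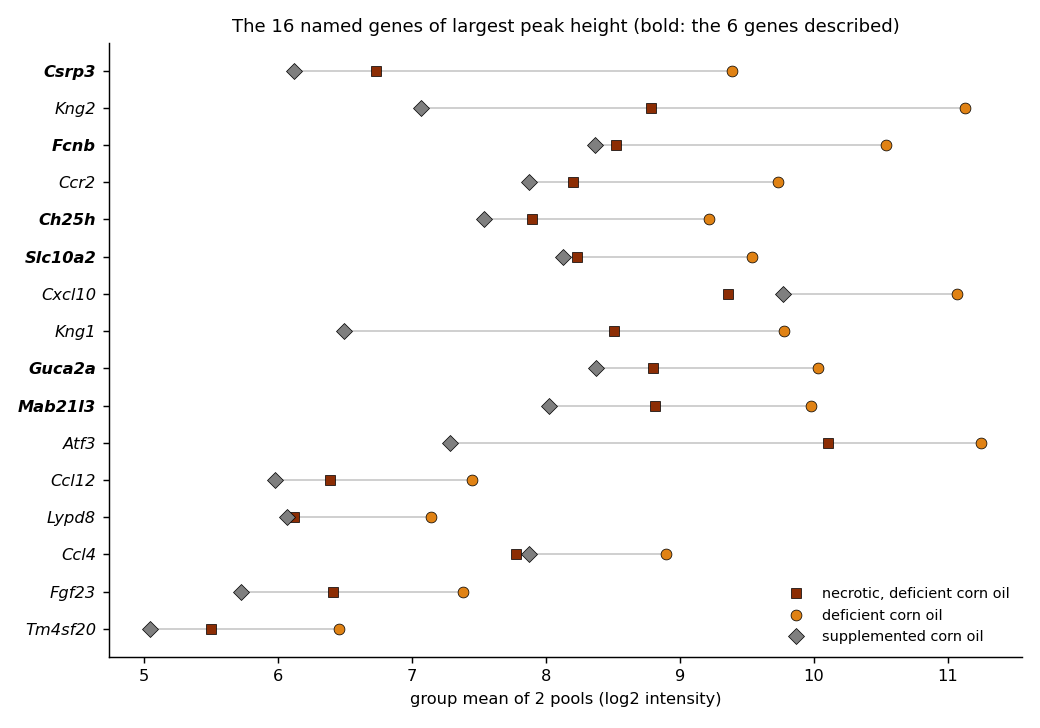
Group means of 2 pools (horizontal axis, log2 intensity) for the 16 named genes of largest peak height, from the highest down, with the 6 genes described in bold. Squares are necrotic, circles deficient corn oil and diamonds supplemented corn oil pools. The necrotic square lies close to the diamond for Fcnb and Slc10a2 and well above it for Kng2, Kng1 and Atf3.

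Across the 10 arrays the 15 pairs among the 6 genes correlated with Pearson's r between 0.79 (Csrp3 with Fcnb) and 0.97 (Ch25h with Mab21l3). These values rest on the 2 deficient corn oil arrays that all pairs share. Over the 8 other arrays r ran from 0.00 (Csrp3 with Fcnb) to 0.89 (Fcnb with Ch25h), with a median of 0.52. Over those 8 arrays Csrp3 correlated highest with Guca2a (0.625).

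The genes whose profiles were most like each member were sought among 3248 rows with 1 symbol and a range of at least 1 over the 10 arrays. For Csrp3 they were Guca2a (r = 0.957), Tm4sf20 (0.954) and Fgf23 (0.950), and for Guca2a they were Fgf23 (0.959), Csrp3 (0.957) and Ccl12 (0.941). Fcnb was followed most closely by Pdgfb (0.958), Slc10a2 (0.957) and Ccr2 (0.956), and Slc10a2 by Fcnb (0.957), Cxcl10 (0.953) and Ccl4 (0.951). Ch25h was nearest to Mab21l3 (0.971), Ccl12 (0.962) and Mybpc2 (0.960), and Mab21l3 to Mybpc2 (0.982), Irf1 (0.981) and Kng2 (0.977). Ccr2, the receptor for monocyte chemokines, shared with Fcnb the higher value in replicate 2, with 8.27 and 8.13 in necrotic, 9.01 and 10.46 in deficient corn oil and 7.88 and 7.86 in supplemented corn oil pools. These likenesses are descriptions over 10 arrays dominated by the same 2.

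Genes that work beside each of the 6 were compared next, from lists of general knowledge, with the limma fit and Benjamini-Hochberg adjustment over all rows. Of all rows, 1.13% were called in deficient against supplemented corn oil pools and 9.79% in necrotic against deficient corn oil pools (4.71% higher). Where a number of list genes is said to have risen or fallen, only genes called at the threshold of 0.05 are counted. Under fish oil no gene of any list was called by limma, where 3 of the 139 measured list genes had an unadjusted p under 0.05.

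Among 18 measured LIM and stretch-response proteins of muscle, none was called in deficient against supplemented corn oil pools (limma, 5 at an unadjusted p under 0.05, median difference 0.23 against 0.00 over all genes). In necrotic against deficient corn oil pools 5 were called higher and none lower, with a median difference of 0.16. Csrp1 and Csrp2 are the nearest relatives of Csrp3, and neither passed beside it. Csrp1 differed by 0.39 ± 0.12 (adjusted p = 0.204), Csrp2 by -0.34 ± 0.19 (0.438 as adjusted p) and Ankrd1, a stretch-responsive muscle protein, by 0.59 ± 0.14 (adjusted p = 0.096) in deficient against supplemented corn oil pools. In necrotic against deficient pools Csrp1 rose by 0.48 ± 0.12 (adjusted p = 0.0425), Pdlim5 by 1.02 ± 0.11 (adjusted p = 0.00113), Pdlim7 by 1.11 ± 0.20 (adjusted p = 0.0115), Fhl2 by 0.92 ± 0.16 and Crip1 by 1.13 ± 0.30. Of these calls only that of Pdlim5 held without each of the 4 arrays in turn. Csrp1 and Crip1 lost theirs without any 1 of the 4, Fhl2 without necrotic replicate 2 (adjusted p = 0.0683) or deficient corn oil replicate 1 (adjusted p = 0.081), and Pdlim7 without necrotic replicate 2 (adjusted p = 0.062).

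Striated muscle markers were followed because kidney samples could carry muscle. Their mean level over 18 genes was 6.70 and 6.47 in necrotic, 6.72 and 6.78 in deficient corn oil and 6.61 and 6.54 in supplemented corn oil pools, and 6.64 to 6.83 in fish oil pools. Acta1, skeletal muscle actin, Ckm, muscle creatine kinase, Actn2 and Mb were chosen after their values were seen. Acta1 read 8.66 and 8.71 in deficient against 8.46 and 8.52 in supplemented corn oil pools, and Ckm 7.90 and 7.86 in deficient against 7.81 and 7.64 in supplemented ones. None of the 18 was called in that comparison (3 at an unadjusted p under 0.05, median difference 0.19 against 0.00 over all genes). Myh7 was higher by 0.44 ± 0.15 and Tnnc2 by 0.43 ± 0.12 there. Myl3 (-0.18), Tnni1 (-0.06) and Myl2 (-0.04) were lower, and all other markers of the list were higher. Actn2, an actin cross-linker, was the 1 marker with both deficient corn oil pools above all 8 other arrays, by 0.0052, at 5.86 and 5.93 in deficient against 5.55 and 5.59 in supplemented corn oil pools. Mb, myoglobin, had the largest peak height of the list, 0.36, and read 6.75 and 6.31 in necrotic, 7.81 and 7.23 in deficient corn oil and 6.98 and 7.33 in supplemented corn oil pools. The part of muscle RNA in the Csrp3 values was not tested. Tnnc1, a troponin, fell by 1.19 ± 0.18 in necrotic against deficient corn oil pools (adjusted p = 0.00605).

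For Fcnb, the related list held 15 measured ficolin and lectin pathway genes. Its sister ficolin Fcna read 6.93 and 7.36 in deficient against 7.01 and 6.75 in supplemented corn oil pools, overlapping. The protease Masp1, which ficolins recruit, fell by 1.17 ± 0.12 in deficient against supplemented corn oil pools (adjusted p = 0.00525) and was the single call of the list there. It read 7.27 and 7.21 in those deficient pools, against 8.35 and 8.47 in supplemented ones. In necrotic against deficient pools Masp1 rose by 0.61 ± 0.12 (adjusted p = 0.0192) and C3, the central complement protein, by 2.79 ± 0.40 (adjusted p = 0.00396). C4bpa, a complement inhibitor, rose by 1.08 ± 0.27 (adjusted p = 0.0381) there. These were the 3 of 15 called higher, and none was called lower. Masp2, a further protease of the pathway, differed by -0.27 ± 0.16 between necrotic and deficient pools and by 0.10 ± 0.16 between deficient and supplemented corn oil pools, passing neither test. The Masp1 fall had adjusted p = 0.0539 without supplemented corn oil replicate 1 and 0.066 as adjusted p without replicate 2. The necrotic rise of C4bpa held only without deficient corn oil replicate 2, and that of Masp1 only without necrotic replicate 1.

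Markers of neutrophils and monocytes, the cells that make ficolin B, had a mean over 21 genes of 7.96 and 7.64 in necrotic, 7.17 and 7.49 in deficient corn oil and 6.77 and 6.80 in supplemented corn oil pools, and of 6.56 to 6.68 in fish oil pools. The list was thus highest in the necrotic pools, where Fcnb read 8.67 and 8.37, and its part in the Fcnb values was not tested. In deficient against supplemented corn oil pools limma called 2 of 21 higher and none lower (12 at an unadjusted p under 0.05). Cd14, a lipopolysaccharide receptor, rose by 1.55 ± 0.15 (adjusted p = 0.00384) and Lyz2, lysozyme, by 1.08 ± 0.20 (adjusted p = 0.0408). Mmp9 differed by -1.17 ± 0.24 without a call (adjusted p = 0.0663), while the median difference of the list was 0.57. In necrotic against deficient pools 8 rose, among them Il1r2, a decoy receptor, by 2.34 ± 0.25, Cxcr2, a chemokine receptor, by 1.59 ± 0.28 and Itgam, an integrin, by 1.51 ± 0.30. There 1 fell, Ccr2, by 1.53 ± 0.38 (adjusted p = 0.037). The Cd14 call ended without supplemented corn oil replicate 2 (adjusted p = 0.0537) and that of Lyz2 without either supplemented array or deficient corn oil replicate 2. Of the 8 necrotic rises, 3 kept their call without necrotic replicate 1, 7 without necrotic replicate 2, 4 without deficient corn oil replicate 1 and 5 without its replicate 2. The Ccr2 and Itgam calls ended without either necrotic array, and that of Cxcr2 without deficient corn oil replicate 1. Csf3r and Il1r2 kept theirs without each of the 4 arrays.

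**Figure D4:**
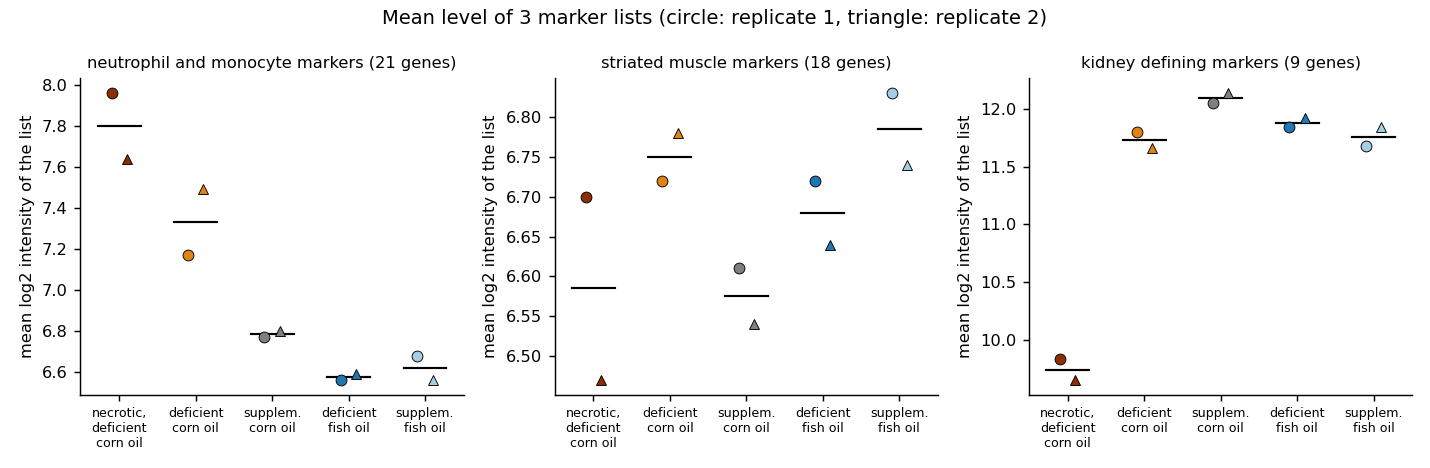
Mean log2 intensity (vertical axis) of 3 marker lists on each array, by group, with circles for replicate 1, triangles for replicate 2 and lines for the mean of 2 pools. Neutrophil and monocyte markers are highest in necrotic pools, striated muscle markers span only 6.47 to 6.83 over all arrays, and kidney defining markers are lowest in necrotic pools.

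Around Ch25h, 17 measured genes of oxysterol and sterol handling gave no call in deficient against supplemented corn oil pools (5 at an unadjusted p under 0.05). Cyp7b1, which hydroxylates the product of Ch25h further, read 8.08 and 8.54 in necrotic, 7.77 and 7.99 in deficient corn oil and 7.30 and 7.28 in supplemented corn oil pools, without passing either comparison (adjusted p = 0.158 for necrotic minus deficient and 0.163 for deficient minus supplemented). Gpr183, the receptor that attracts immune cells to such oxysterols, differed by 0.26 ± 0.18 in deficient against supplemented corn oil pools. For 2 genes of the list, Gpr183 and Insig1, both deficient corn oil pools lay above all 8 other arrays, by 0.055 and 0.20. Insig1 had the largest peak height of the list, 0.45. It differed by 0.76 ± 0.22 in deficient against supplemented corn oil pools and by -0.45 ± 0.22 in necrotic against deficient ones, passing neither. Between necrotic and deficient pools 1 gene rose, Soat1, which esterifies cholesterol, by 0.57 ± 0.11, and 2 fell, the oxysterol receptor Nr1h3 by 0.73 ± 0.13 and Insig2 by 0.45 ± 0.11. None of these 3 calls held without each array: Soat1 had adjusted p = 0.0898 and Nr1h3 adjusted p = 0.0816 without deficient corn oil replicate 1, and Insig2 lost its call without any 1 array. The calls of Soat1 and Nr1h3 also ended without necrotic replicate 2 (adjusted p = 0.079) and necrotic replicate 1 (adjusted p = 0.0613).

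Of 19 measured bile acid transport genes besides Slc10a2, 1 was called in deficient against supplemented corn oil pools, Slc10a5, a family member, which fell by 0.80 ± 0.14 (adjusted p = 0.0337). In necrotic against deficient pools 6 fell and 1 rose. Slc51a, a subunit of the exporter that carries bile acids across the basolateral membrane, read 6.76 and 6.69 in necrotic, 10.71 and 9.45 in deficient corn oil and 10.03 and 10.11 in supplemented corn oil pools. It fell by 3.36 ± 0.33 in necrotic against deficient pools (adjusted p = 0.00077). Slco1a6, an organic anion transporter, fell by 4.14 ± 0.31 (adjusted p = 0.000262), Slc10a5 by 1.42 ± 0.14 and the nuclear repressor Nr0b2 by 1.14 ± 0.19 in the same comparison. Fabp6, the bile acid binding protein of the ileum, differed by -0.08 ± 0.16 there and by 0.28 ± 0.16 in deficient against supplemented corn oil pools. The corn oil call of Slc10a5 ended without either supplemented array (adjusted p = 0.127 and 0.27) or deficient corn oil replicate 2 (adjusted p = 0.173). The necrotic fall of Nr0b2 lost its call without necrotic replicate 2 (adjusted p = 0.052) or deficient corn oil replicate 1 (adjusted p = 0.0619).

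Guca2b, uroguanylin, which acts on the same receptor, read 8.63 and 8.27 in necrotic, 10.88 and 10.41 in deficient corn oil and 10.97 and 10.83 in supplemented corn oil pools. It fell by 2.19 ± 0.24 in necrotic against deficient pools (adjusted p = 0.0012) and differed by -0.26 ± 0.24 in deficient against supplemented corn oil pools (adjusted p = 0.637), where Guca2a was 1.66 ± 0.31 higher. The receptor Gucy2c read 5.64 to 6.10 on the 6 corn oil arrays, under the array medians of 7.28 to 7.43, and passed neither comparison. Whether it was detected at all was not tested. Of the 17 measured genes of guanylin, natriuretic peptides and cyclic GMP, 1 was called in deficient against supplemented corn oil pools, the sodium-proton exchanger Slc9a3, which fell by 0.83 ± 0.12 (adjusted p = 0.0191). In necrotic against deficient pools 5 rose and 4 fell, with Slc9a3 at -1.80 ± 0.12, Corin, which cleaves natriuretic peptide precursors, at -1.27 ± 0.16, and the phosphodiesterase Pde3a at 1.07 ± 0.14. Of the 5 rises, only that of Pde3a kept its call without necrotic replicate 2, 2 kept it without deficient corn oil replicate 1, and all 5 kept it without either of the other arrays. Of the 4 falls, that of Prkg2, a cyclic GMP-dependent kinase, ended without necrotic replicate 1 (adjusted p = 0.0655), necrotic replicate 2 (adjusted p = 0.16) or deficient corn oil replicate 1 (adjusted p = 0.193). The corn oil call of Slc9a3 ended without supplemented corn oil replicate 1 (adjusted p = 0.128) or replicate 2 (adjusted p = 0.186) or deficient corn oil replicate 2 (adjusted p = 0.0992).

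Of the MAB21 family 5 of 8 listed genes were measured, and none was called in either corn oil comparison (2 in each at an unadjusted p under 0.05). Mab21l1 differed by -0.06 ± 0.14 and Mab21l2 by 0.14 ± 0.18 in deficient against supplemented corn oil pools, where Mab21l3 was 1.95 ± 0.21 higher. Across all lists, 1 of 139 related genes reached a peak height of 1, namely Ccr2. The effect of choline lack was also compared between the oils for the related genes, in an interaction term added after the values were seen. Of all 29214 rows 30 were called in it (0.103%), and 2892 had an unadjusted p under 0.05. No gene of the 139 passed, the lowest adjusted p being 0.072 for Cd14 (1.39 ± 0.21, corn oil difference minus fish oil difference).

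**Figure D5:**
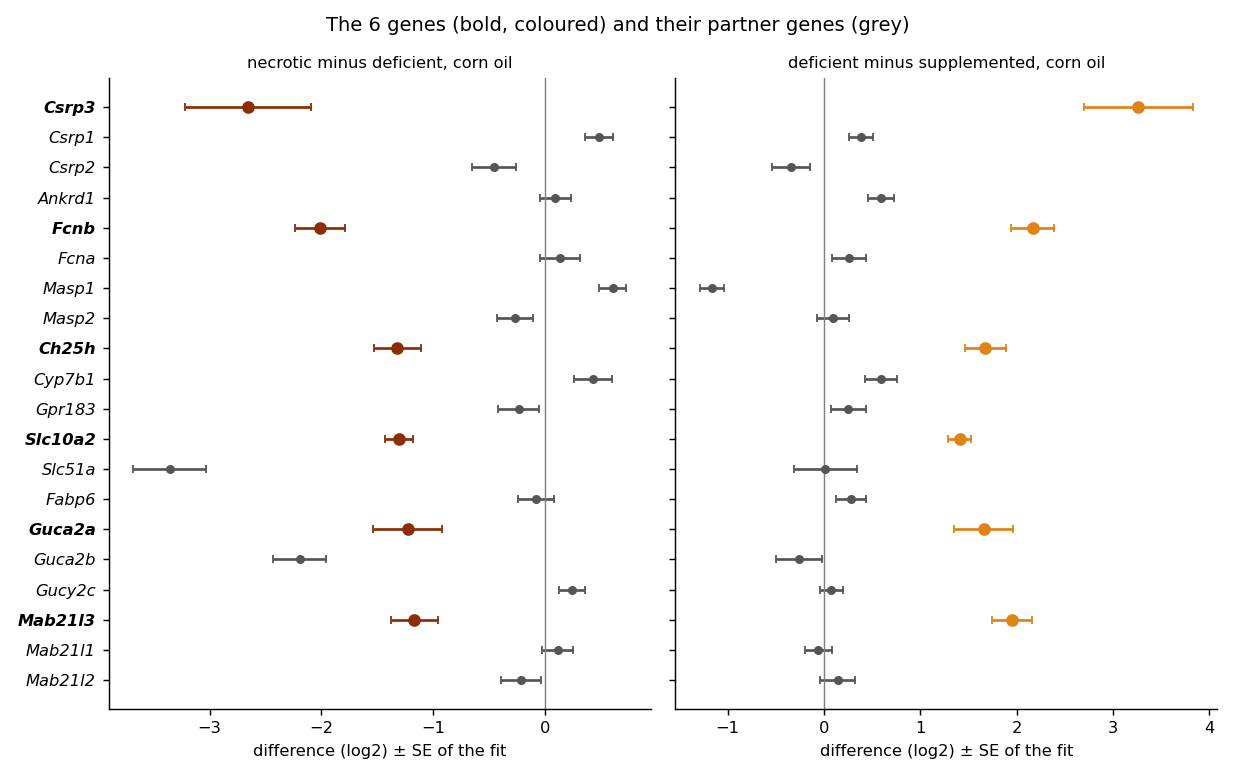
Differences (horizontal axis, log2, bars are the SE of the fit) of the 6 genes, in bold and colour, and of their partner genes in grey. The left panel shows necrotic minus deficient corn oil and the right panel deficient minus supplemented corn oil. Ankrd1 and Cyp7b1 are the highest partners in the right panel, each at 0.59, and Slc51a and Guca2b lie at -3.36 and -2.19 in the left one.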

How the data were processed

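Kidney RNA of 10 pools was measured on expression arrays with biotin label. Per the submitters' processing notes the authors used RMA, and the deposited values are on its log2 scale, 1 per probe set. Its software and version were not given in the sources used here. Values span 1.62 to 14.72 (array medians 7.28 to 7.43) and were not scaled again. Of 29214 rows, 15310 had 1 symbol in the platform annotation, 323 had several and 13581 were not listed and stayed unnamed.

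1 limma 3.58.1 fit held all 5 groups (R 4.3.3; 5 residual and 3.59 prior degrees of freedom), and p-values were adjusted over all rows with a threshold of 0.05. The fit was tested on simulated data. The 6 genes, the related-gene lists and the naming rules (3 nearest profiles, 10 largest peak heights, up to 4 called genes per list, fixed partners) were chosen with earlier results of these data known. A list gene is represented by its row of highest mean, and 17 of 156 listed genes had no named row. Promoters are those of RefSeq (GRCr8), 250 bases before the start. Alternatives were centring, quantile normalization, a low-value filter, another prior, fits of 2 groups, a replicate block and leaving out arrays. Figures used Python 3.11.15 and matplotlib 3.10.9.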

Additional observations from a re-analysis of the deposited data

How the results depend on the processing

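Only 2 pools per group limit every statement, and the depth of an array shows only as signal over background, for which no detection calls were used. Under fish oil 0 rows were called in every alternative except without deficient fish oil replicate 1, where 2 were (0 to 2 over the arrays left out). The deficient against supplemented corn oil count of 330 became 540 with a trend and robust prior, 82 when only those groups were fitted, and 32 to 714 without single arrays. The necrotic against deficient count of 2860 became 654 when only those groups were fitted and 1040 to 3125 without single arrays.

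No alternative brought any of the 6 genes under the threshold in deficient against supplemented fish oil pools. Without single arrays the difference ran from 0.09 to 0.52 for Csrp3, -0.11 to 0.28 for Fcnb, -0.082 to 0.25 for Ch25h, 0.13 to 0.35 for Slc10a2, -0.30 to 0.46 for Guca2a and -0.21 to 0.074 for Mab21l3, and the cause was not tested. With the replicate number as a block the counts were 0 (fish oil), 255 (corn oil) and 2678 (necrotic), and the 6 fish oil differences were the same, for example 0.30 for Csrp3; replicate 1 minus replicate 2 correlated between -0.17 and 0.14 over the 10 pairs of groups, so the numbers were not treated as pairs. Other rows of the same gene could not be tried, since each gene had 1 row.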
